A study of Mus musculus with 18 samples.

Results

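The data concern 10 transcription factors that pattern mesenchyme, the loose tissue from which bone, cartilage, tendon and stroma form. They were chosen by name as the homeobox pair Prrx1 and Prrx2, the basic helix-loop-helix (bHLH) pair Twist1 and Twist2, the T-box genes Tbx15 and Tbx18, the homeobox genes Pitx1 and Shox2, and the homeobox pair Msx1 and Msx2. All 10 were found among the 27179 genes of the table, each as 1 gene, and all 10 passed a filter on low values, a mean over the 18 libraries of 10 or more normalized counts, as 14353 genes did. The study sequenced RNA from cultured bone marrow mesenchymal stem cells (MSCs), primary C57BL6 mouse cells, at day 7. Young, old and rejuvenated old MSCs had 6 libraries each. Young MSCs came from mice of 6 weeks and old MSCs from mice of 18 to 24 months, and both had no treatment. Rejuvenated old MSCs were old MSCs kept for 7 days with young MSCs on the other side of a 0.4 µm Transwell membrane, which passes secreted factors but no cells. All donors were male according to the methods. An old culture paired with a second old culture was not analysed here, so the presence of a second cell layer and the age of that layer cannot be told apart. The labels call the libraries biological replicates without naming the donor mice, so p-values measure the spread between these cultures, which may be technical.

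As background, these factors mark where in the body a mesenchymal cell was formed. Prrx1 and Prrx2 act in limb bud and facial mesenchyme, and Prrx1 is widely used to mark skeletal progenitors of the limb. Twist1 and Twist2 hold back osteoblast differentiation by binding Runx2. Tbx15 shapes the limb and shoulder skeleton, and Tbx18 marks epicardium, ureter mesenchyme and part of the somites. Pitx1 gives the hindlimb its identity, Shox2 acts in the upper limb skeleton and in the pacemaker of the heart, and Msx1 and Msx2 are repressors induced by bone morphogenetic protein (BMP) signals in the face, the skull and the limb tip.

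The genes lie on 7 chromosomes. Prrx1 (chr1:163245119-163315145) and Twist2 (chr1:91801461-91848034) share a chromosome, as do Tbx15 (chr3:99240348-99354260) with Shox2 (chr3:66971723-66981771) and Pitx1 (chr13:55825044-55836190) with Msx2 (chr13:53466881-53472780), in the RefSeq annotation of GRCm38.p6. Prrx2 (chr2:30845064-30881251), Msx1 (chr5:37820491-37824585), Tbx18 (chr9:87702800-87731260) and Twist1 (chr12:33957671-33959831) stand alone. RefSeq promoter sequence matched 8 of the 10, and Tbx15 and Pitx1 were not matched. The 250 bases before the start of Shox2 (chr3:66981772-66982021, minus strand), Msx1 (chr5:37824586-37824835, minus strand) and Twist1 (chr12:33957421-33957670, plus strand) are shown because these genes take opposite directions with age below and their windows hold no annotated exon. The bases just after the RefSeq start of Msx1 were not found whole in a GENCODE vM21 transcript of the gene, unlike those of Shox2 and Twist1. Capitals mark CANNTG, the E-box that Twist factors bind with a bHLH partner. CANNTG reads the same on both strands.
Shox2: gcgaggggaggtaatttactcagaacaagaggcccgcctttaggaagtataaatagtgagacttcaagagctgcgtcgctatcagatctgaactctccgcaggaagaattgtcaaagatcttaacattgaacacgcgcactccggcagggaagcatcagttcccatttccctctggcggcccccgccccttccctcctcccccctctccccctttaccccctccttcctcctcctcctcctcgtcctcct
Msx1: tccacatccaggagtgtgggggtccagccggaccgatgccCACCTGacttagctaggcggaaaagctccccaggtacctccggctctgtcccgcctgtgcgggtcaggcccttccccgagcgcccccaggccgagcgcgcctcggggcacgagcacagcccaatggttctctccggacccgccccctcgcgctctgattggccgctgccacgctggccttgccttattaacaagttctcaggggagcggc
Twist1: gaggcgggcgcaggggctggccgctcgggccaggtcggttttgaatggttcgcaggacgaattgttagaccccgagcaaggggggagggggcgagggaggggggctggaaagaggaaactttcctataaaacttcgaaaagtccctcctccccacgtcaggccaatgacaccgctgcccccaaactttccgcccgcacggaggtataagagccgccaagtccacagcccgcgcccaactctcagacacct
Msx1 held 1 CANNTG, as CACCTG, and the windows of Shox2 and Twist1 held none, while 66.2% of the 32851 promoter windows of this length held at least 1. TAATTA, a core that homeobox factors bind and that also reads the same on both strands, was in none of the 3 windows shown. It was in the windows of Prrx1 and Msx2, and in 4.84% of all windows.

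The libraries held from 22936251 to 29559194 reads. Young libraries had 22936251 to 25648769, old 24965971 to 29559194 and rejuvenated old 26018046 to 29155223. Values are normalized counts, reads divided by 1 size factor per library. Of 15 stromal markers, 15 were above 3 reads in at least 1 young library, 13 in old and 14 in rejuvenated old. Lum was at or below 3 reads in all old and rejuvenated old libraries, and Thy1 in all old ones. Among rejuvenated old libraries Thy1 passed 3 reads only in replicate 1, at 21.6 normalized counts against at most 0.951 in the others. In young libraries Thy1 was 175 to 227. The sum of 4 Y-linked genes was 0 to 5.15 normalized counts in young libraries, against 5035 to 5604 in old and 4898 to 5980 in rejuvenated old. The young libraries thus lack the Y-linked transcripts of the stated male sex. Xist, a transcript of female cells, was also low, at 21.2 to 41.2 in young, 1.97 to 14.4 in old and 4.83 to 10.3 in rejuvenated old libraries. The sex of the young donors was not tested. Of 14 macrophage markers, 8 were at the floor in young MSCs, with Ptprc and Adgre1 at 0, and their sum was 926 to 1040, against 15792 to 19866 in old and 15897 to 19347 in rejuvenated old MSCs. The sum of 7 osteoblast markers was 4452 to 4699 in young MSCs, 114584 to 123320 in old MSCs and 66414 to 94345 in rejuvenated old MSCs. Of these 7 genes, 1 alone reached 121909 reads in an old library and 95022 in a rejuvenated old one, so these sums were mostly 1 gene. The sum of 7 adipocyte markers was 16838 to 19369 in young, 43187 to 45586 in old and 47588 to 60640 in rejuvenated old MSCs, and that of 6 chondrocyte markers 593 to 656, 2654 to 3013 and 3609 to 4274. Of 8 endothelial markers, 6 were above the floor in young MSCs and 6 in old, and the sum was 6995 to 7345 in young, mostly Cd34, 146 to 193 in old and 186 to 556 in rejuvenated old MSCs. Skeletal muscle markers were at the floor for 6 of 7 genes in young and in old MSCs and for 5 in rejuvenated old. Their sum was 2.02 to 7.46 in young, 177 to 230 in old and 90.6 to 147 in rejuvenated old MSCs. Epithelial markers were at the floor for 5 of 6 genes in young and 4 of 6 in the other groups. Their sum was 84.9 to 126 in young, 394 to 634 in old and 512 to 686 in rejuvenated old MSCs. Rejuvenated old replicate 1 stood apart by transcripts that are high in young MSCs: Cd34 was 402 normalized counts there and at most 41.9 in the other 5 libraries of its group. Leaving that library out changed no member's call in any comparison.

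**Figure D1:**
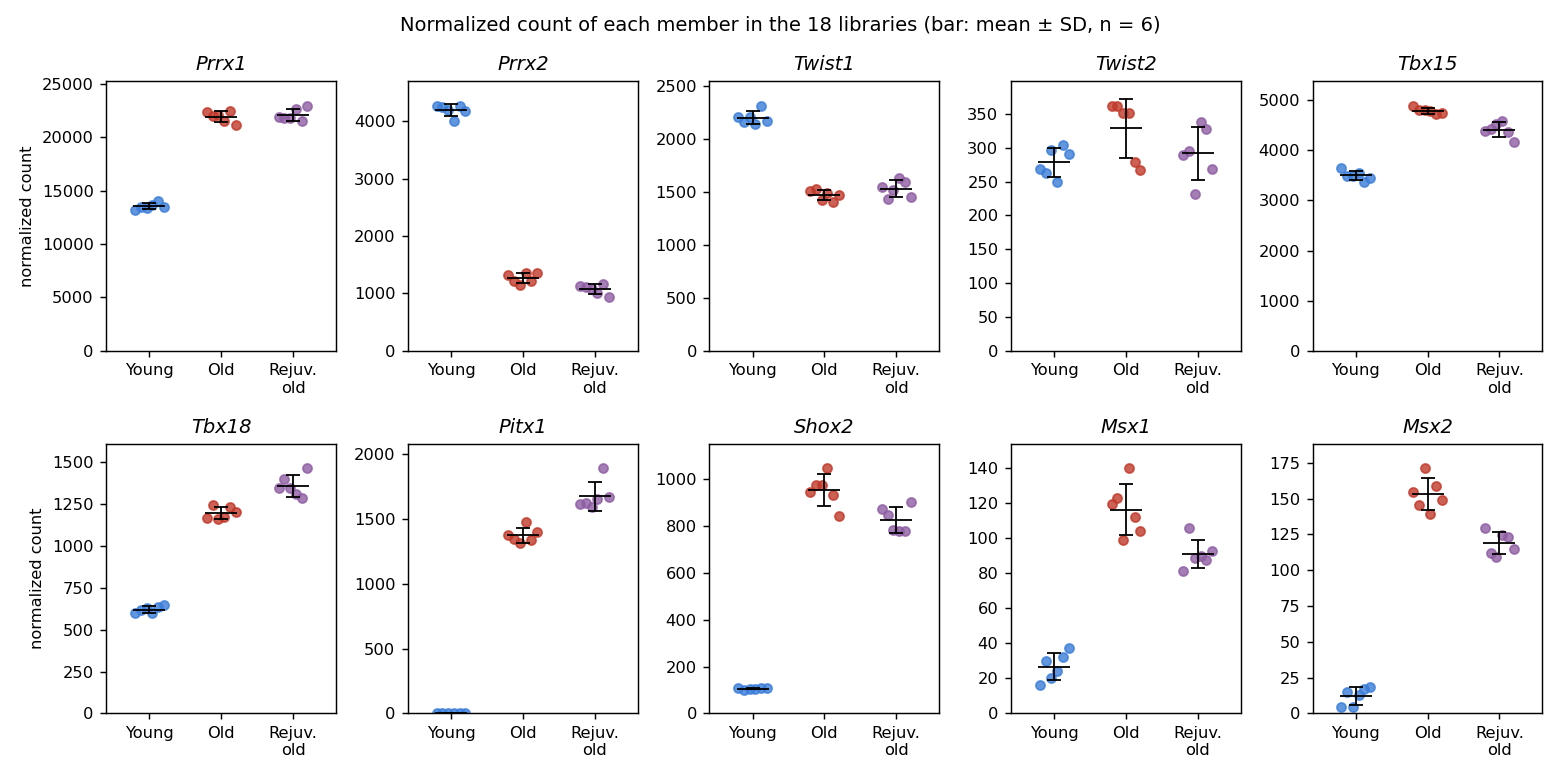
Normalized count (y axis, from 0) of each of the 10 genes in 6 young, 6 old and 6 rejuvenated old libraries, 1 point per library, with the mean ± SD as a bar. Young libraries lie apart from the old ones for every gene except Twist2, whereas old and rejuvenated old libraries lie close together.

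All 10 genes differed between young and old MSCs by limma at an adjusted p under 0.05. Prrx2 and Twist1 were higher in young MSCs and the other 8 were higher in old MSCs, from Twist2 at a ratio of 1.18 to Pitx1, which was at least 437-fold higher. Chromosomes were also set to the same median, by taking from each log2 value the median of its chromosome's tested genes in that library. Prrx1 then no longer differed in a way that passed the test and Twist2 turned to higher in young MSCs. The other 8 kept their direction and call. Of all genes tested 85.7% were called between young and old MSCs, 41.6% higher and 44.1% lower in young, so 10 of 10 called is near that background. The median log2 fold change of the 10 genes, young against old, was −0.82 and their median size was 1.34, against −0.02 and 0.60 over all genes tested. For 9 of the 10, all 6 young libraries lay on one side of all 6 old ones, as for 73.9% of all genes. Age, the Y-linked genes, the marker sums above and the donors move together here and cannot be told apart, and in bulk RNA fewer cells of a type and less RNA per cell cannot be told apart either.

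Levels were set per kilobase of exon, counting the exon bases of all isoforms of a gene. On this scale the leading factor was Prrx2 in young MSCs and Prrx1 in old and in rejuvenated old MSCs. The lengths were 11066 bases for Prrx1 and 1961 for Prrx2. By normalized count Prrx1 was the higher in young MSCs too, at 13533 against 4198. The order of the pair in young MSCs thus depends on these lengths, and the isoforms present were not tested. In young MSCs Prrx2 stood at 2141 ± 53.0 normalized counts per kb (SD, n = 6), above Twist1 at 1351 ± 38.0, Prrx1 at 1223 ± 24.1 and Tbx15 at 934 ± 25.1. Tbx18 (131 ± 4.14), Twist2 (87.7 ± 6.71) and Shox2 (31.9 ± 0.815) followed, each apart from the next, and Msx1 (8.59 ± 2.51) overlapped Msx2 (3.69 ± 1.90). Pitx1 was last, below the floor.

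In old MSCs the order of these levels per kb was Prrx1 at 1981 ± 45.5, Tbx15 at 1279 ± 16.3, Twist1 at 904 ± 30.9, Prrx2 at 646 ± 42.8 and Pitx1 at 518 ± 21.5, none of which overlapped its neighbour. Shox2 (288 ± 20.2) overlapped Tbx18 (254 ± 7.50), Twist2 followed at 104 ± 13.8, and Msx2 (46.7 ± 3.42) overlapped Msx1 (37.6 ± 4.75). Rejuvenated old MSCs had the same first 3 genes, with Prrx1 at 1997 ± 51.8, Tbx15 at 1177 ± 38.9 and Twist1 at 940 ± 47.7. Pitx1 at 631 ± 41.5 stood there above Prrx2 at 546 ± 43.0, and Tbx18 (288 ± 13.5) overlapped Shox2 (250 ± 16.6). The last 3 were Twist2 at 91.9 ± 12.2, Msx2 at 36.3 ± 2.42 and Msx1 at 29.3 ± 2.63, of which Msx2 and Msx1 overlapped. The exon lengths come from GENCODE vM21, and the authors' own annotation is not given in the sources used here.

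**Figure D2:**
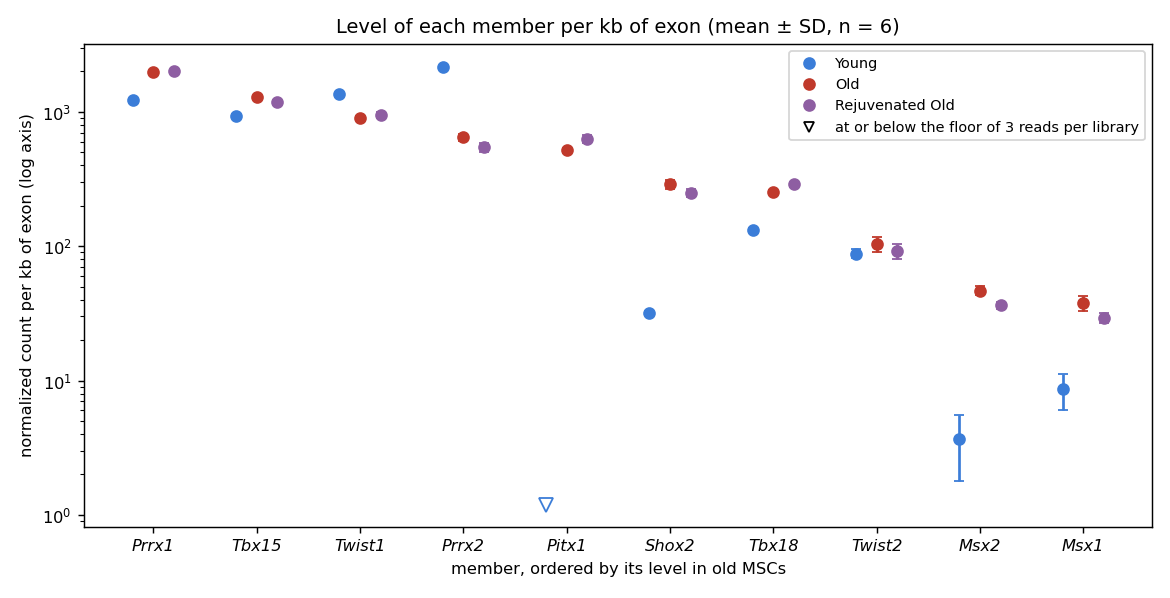
Normalized count per kb of exon, all isoforms counted (y axis, log scale), of the 10 genes in each group, mean ± SD over 6 libraries, ordered by the level in old MSCs. Prrx2 leads in young MSCs at 2141, Prrx1 leads in the other 2 groups at 1981 and 1997, and the open triangle marks Pitx1 in young MSCs, plotted at the floor.

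The paired-related homeobox genes took opposite directions with age, although the difference of Prrx1 came to 0.03 on the log2 scale with chromosomes set to the same median. Prrx2 ranged from 4001 through a median of 4228 to 4275 normalized counts in young MSCs, from 1146 through 1271 to 1351 in old and from 934 through 1094 to 1157 in rejuvenated old MSCs. All young libraries were above all old ones, and the old and rejuvenated old libraries overlapped. The mean was 4198 ± 104 in young and 1267 ± 83.9 in old MSCs (SD, n = 6), a log2 fold change, young against old, of 1.73 ± 0.05 (SE, adjusted p = 1.55e-19). Prrx1 ranged from 13233 through 13495 to 13994 in young MSCs, from 21114 through 22026 to 22462 in old and from 21498 through 21856 to 22981 in rejuvenated old MSCs. All young libraries were below all old ones, while the old and rejuvenated old libraries mixed throughout. Its log2 fold change, young against old, was −0.70 ± 0.03 (adjusted p = 5.73e-17).

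The fold of Prrx1 lay near the median of its chromosome, whose genes ranged from −1.27 at the lower quartile to −0.11 at the upper. The 800 tested genes of chromosome 1 had a median log2 fold change of −0.69 between young and old MSCs, and 49.3% of them were lower than Prrx1. With each chromosome set to the same median, Prrx1 differed by 0.03 ± 0.03 on the log2 scale (adjusted p = 0.302), while Prrx2, on chromosome 2 with a median of −0.10, kept a difference of 1.83 ± 0.05 (adjusted p = 6.89e-20). The part of the chromosome-wide shift in the fold of Prrx1 was not tested further. Within a library the ratio of Prrx1 to Prrx2 per kb was 0.549 to 0.604 in young MSCs, 2.77 to 3.41 in old and 3.29 to 4.36 in rejuvenated old MSCs. With these exon lengths young libraries thus held more Prrx2 than Prrx1 per kb, and all others held more Prrx1.

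Twist1 was higher in young MSCs, and Twist2 lower, or higher with chromosomes set to the same median. Twist1 ranged from 2146 through a median of 2187 to 2316 in young MSCs, from 1401 through 1481 to 1531 in old and from 1437 through 1532 to 1634 in rejuvenated old MSCs. No young library overlapped an old one, and the old and rejuvenated old libraries overlapped. The means were 2200 ± 61.9 and 1471 ± 50.4 in young and old MSCs, a log2 fold change of 0.58 ± 0.04 (adjusted p = 3.33e-13). Twist1 lies on chromosome 12, whose 496 tested genes had a median of −0.46 in this comparison, and it stood 1.05 ± 0.04 higher on the log2 scale in young MSCs once chromosomes were set to the same median (adjusted p = 3.90e-17).

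Twist2 was the least separated of the 10. It ranged from 250 through 280 to 304 in young MSCs, from 266 through 351 to 362 in old and from 232 through 292 to 338 in rejuvenated old MSCs, so all 3 groups overlapped. The means were 279 ± 21.3, 329 ± 43.8 and 292 ± 38.8, and the log2 fold change, young against old, was −0.23 ± 0.09 (adjusted p = 0.0268). That call was lost without young replicate 2 (adjusted p = 0.0522) or 4 (0.0630), and without old replicate 1 (0.0640), 2 (0.0630), 3 (0.0570) or 4 (0.0575). It was also lost with the same total per library (adjusted p = 0.114), the same 75th percentile (0.0559) and quantile normalization (0.0607). With chromosomes set to the same median it turned to 0.49 ± 0.09, higher in young MSCs (adjusted p = 4.62e-05), since Twist2 lies on chromosome 1. Of its 3174 exon bases 1477 are also covered by the antisense gene Gm29100, and the strand setting of the counting is not given in the sources used here, so reads of the pair may not be told apart. The ratio of Twist1 to Twist2 per kb had a median of 15.4 in young MSCs, 8.25 in old MSCs and 9.98 in rejuvenated old MSCs, and its lowest young value of 14.5 was above its highest value of 12.7 in the other groups.

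**Figure D3:**
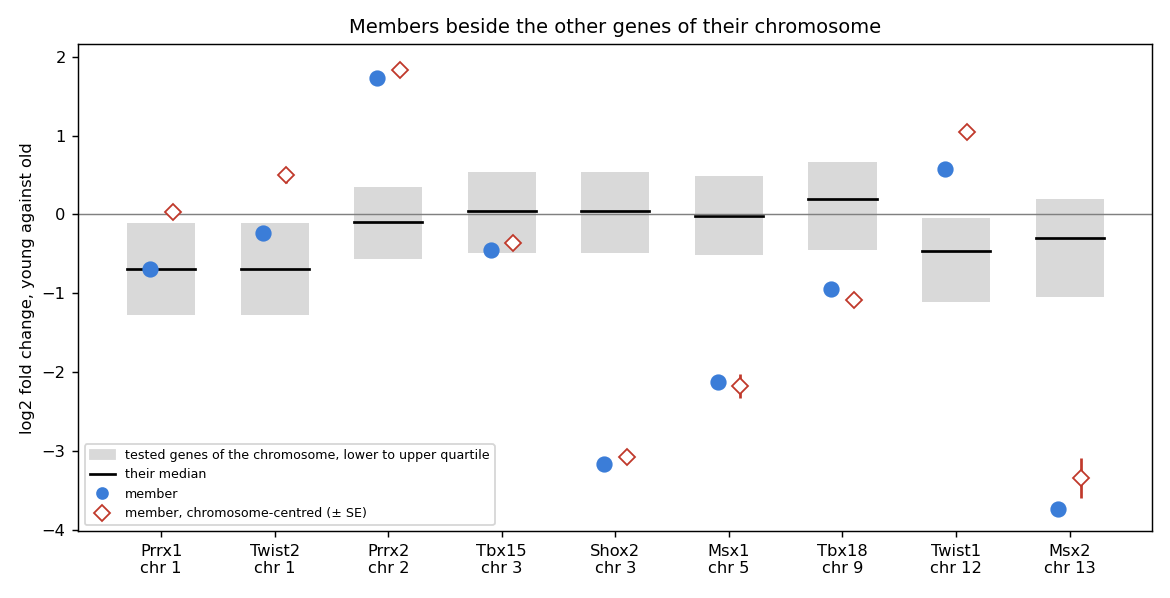
Log2 fold change, young against old (y axis), of 9 members as blue points, beside the genes between the lower and upper quartile (grey) and median (black line) of the tested genes of their chromosome, with the fold after setting each chromosome to the same median as open diamonds (± SE). Prrx1 sits on the median of chromosome 1 at −0.69. Twist2 sits above that median but below the upper quartile, and Twist1 sits above the upper quartile of its chromosome. Pitx1 is left out because it was at the floor in young MSCs.

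Both T-box genes were higher in old MSCs. Tbx15 ranged from 3374 through a median of 3487 to 3649 in young MSCs, from 4720 through 4795 to 4894 in old and from 4172 through 4403 to 4590 in rejuvenated old MSCs. The 3 groups did not overlap, with rejuvenated old libraries between the other two. The log2 fold change, young against old, was −0.45 ± 0.03 (adjusted p = 2.14e-13). Tbx18 ranged from 596 through 622 to 646 in young MSCs, from 1160 through 1187 to 1245 in old and from 1284 through 1346 to 1463 in rejuvenated old MSCs. Here too no groups overlapped, but the rejuvenated old libraries were the highest. The log2 fold change, young against old, was −0.95 ± 0.04 (adjusted p = 5.95e-17). The ratio of Tbx15 to Tbx18 per kb was 6.70 to 7.70 in young, 4.83 to 5.28 in old and 3.59 to 4.41 in rejuvenated old MSCs, with no overlap between groups. Of the 4718 exon bases of Tbx18, 970 lie opposite D030062O11Rik.

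Pitx1, the hindlimb factor, was read once in the young libraries. Young replicate 1 had 1 read and the other 5 had 0. Old libraries ranged from 1317 through a median of 1362 to 1475 normalized counts and rejuvenated old ones from 1593 through 1641 to 1893. Against a floor of 3 reads per library, Pitx1 was at least 437-fold higher in old and at least 531-fold higher in rejuvenated old than in young MSCs. Tbx4, a hindlimb factor known to act after Pitx1, was instead found in young MSCs, at 117 ± 10.6 normalized counts, and had at most 2 reads in any old library, at least 39.0-fold lower. Of the 2656 exon bases of Pitx1, 108 are shared on the same strand with Gm28760 and 165 lie opposite Gm47071.

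Shox2 ranged from 102 through a median of 106 to 109 in young MSCs, from 845 through 962 to 1048 in old and from 778 through 815 to 903 in rejuvenated old MSCs. All young libraries were far below the rest, and the old and rejuvenated old libraries overlapped. The mean was 106 ± 2.70 in young and 955 ± 66.8 in old MSCs, 9.04 times as high in old, with a log2 fold change, young against old, of −3.16 ± 0.05 (adjusted p = 1.35e-23). Shox2 shares 153 of its 3311 exon bases with Rsrc1 on the opposite strand, and Rsrc1 was at 1388 ± 42.4 in young and 1680 ± 79.3 in old MSCs.

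The Msx genes had the lowest levels of the 10 in old MSCs and were lower still in young MSCs. Msx1 ranged from 16.3 through a median of 27.1 to 37.1 in young MSCs, from 99.1 through 116 to 140 in old and from 81.4 through 89.1 to 106 in rejuvenated old MSCs. Msx2 ranged from 4.35 through 14.1 to 18.5 in young MSCs, from 139 through 152 to 171 in old and from 109 through 119 to 130 in rejuvenated old MSCs. For both genes every young library was below every other library, and for Msx2 the rejuvenated old libraries were also all below the old ones. The log2 fold change, young against old, was −2.13 ± 0.15 for Msx1 (adjusted p = 9.94e-12) and −3.74 ± 0.25 for Msx2 (adjusted p = 3.11e-12). The ratio of Msx1 to Msx2 per kb was 1.95 to 4.76 in young, 0.613 to 1.07 in old and 0.664 to 0.996 in rejuvenated old MSCs, where the young value rests on as few as 4 reads of Msx2 in a library.

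**Figure D4:**
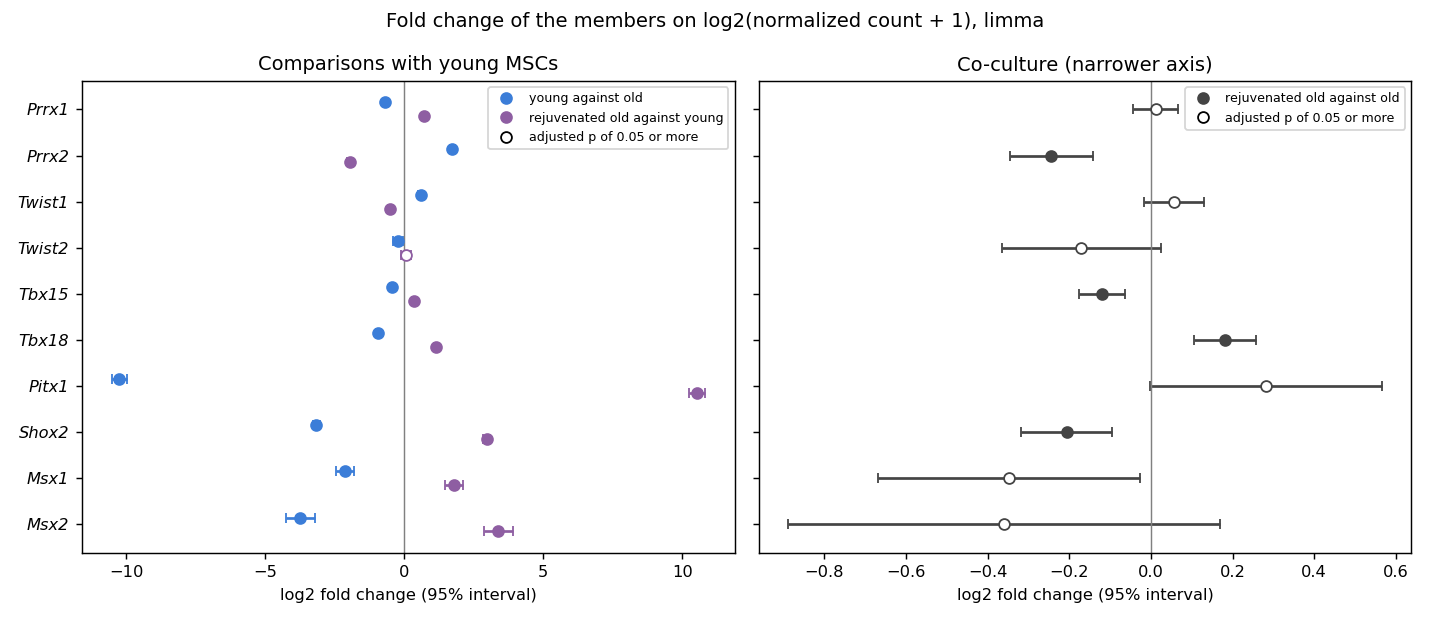
Log2 fold change on log2(normalized count + 1) with its 95% interval (x axis) for the 10 genes, with comparisons that involve young MSCs on the left and rejuvenated old against old on the right with a narrower axis. Open points have an adjusted p of 0.05 or more. The folds of Pitx1 on the left depend on the value added before the logarithm and are no bound.

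Old MSCs differed little in these genes after co-culture, which went with small log2 fold changes. Tbx18 rose and Prrx2, Tbx15 and Shox2 fell in rejuvenated old against old MSCs, 4 of 10 genes, and 6 did not pass the test. Of all genes tested 41.6% were called in this comparison, 21.0% higher and 20.6% lower. In this limma fit of all 3 groups, 4 of 10 is thus near the background. Other tests, given below, called more of the 10 genes. The members' median log2 fold change was −0.15 and their median size 0.19, against 0.01 and 0.15 over all genes. All 6 libraries of one group were above all 6 of the other for 4 genes, Tbx15, Tbx18, Pitx1 and Msx2, and for 22.0% of all genes. The comparison shares the old libraries with that of young and old MSCs, so values are set side by side with no test across them.

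Prrx2 fell from 1267 ± 83.9 normalized counts in old to 1070 ± 84.4 in rejuvenated old MSCs, a log2 fold change of −0.24 ± 0.05 (adjusted p = 3.32e-04). It was 4198 in young MSCs, so the level in rejuvenated old MSCs lay on the far side of old MSCs from young. Tbx15 fell from 4792 ± 61.0 to 4412 ± 146, by 0.12 ± 0.03 on the log2 scale (adjusted p = 0.00100), towards its young mean of 3500. Tbx18 rose from 1196 ± 35.4 to 1358 ± 63.9, by 0.18 ± 0.04 (adjusted p = 3.41e-04), away from its young mean of 620. Shox2 fell from 955 ± 66.8 to 827 ± 54.8, by 0.21 ± 0.05 (adjusted p = 0.00358), towards its young mean of 106. Of the 4 genes that passed, the rejuvenated mean of Tbx15 and Shox2 was thus on the young side of the old mean, and that of Prrx2 and Tbx18 on the other side.

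Pitx1, Msx1 and Msx2 did not pass the limma fit of all 3 groups but passed other tests. Pitx1 was 1377 ± 57.2 in old and 1676 ± 110 in rejuvenated old MSCs, with no overlap between the libraries, and its log2 difference of 0.28 ± 0.14 had an adjusted p of 0.106. Without young replicate 1, which holds the lone young read, the adjusted p was 9.13e-04. Msx1 was 116 ± 14.7 and 90.9 ± 8.14, a difference of −0.35 ± 0.15 (adjusted p = 0.0766, and 0.0379 without young replicate 1). Msx2 was 153 ± 11.2 and 119 ± 7.92, a difference of −0.36 ± 0.25 (adjusted p = 0.276). In a limma fit of old and rejuvenated old libraries alone the adjusted p was 7.27e-05 for Pitx1, 0.00955 for Msx1 and 0.00140 for Msx2. With edgeR on the recovered reads it was 3.38e-05, 0.0223 and 0.0230, and with DESeq2 7.66e-08, 0.00761 and 9.34e-04, so these tests called 7 of the 10 genes in all. Of all genes, the fit of 2 groups called 40.7%, edgeR 43.3% and DESeq2 44.3%.

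Prrx1, Twist1 and Twist2 did not pass in any test or setting run for rejuvenated old against old MSCs. Prrx1 differed by 0.01 on the log2 scale, with a 95% interval of −0.04 to 0.07 (adjusted p = 0.772). Twist1 differed by 0.06, with an interval of −0.02 to 0.13 (adjusted p = 0.212). Twist2 differed by −0.17, with an interval of −0.37 to 0.02 (adjusted p = 0.153). For the most abundant of these factors in old MSCs, Prrx1, a change of over 0.07 on the log2 scale is outside the interval, whereas the interval of Twist2 is wider. The osteoblast marker sum, mostly 1 gene, was lower and the adipocyte and chondrocyte sums were higher in rejuvenated old than in old MSCs. These sums are given above, and their part in the differences of the members was not tested.

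Rejuvenated old MSCs also differed from young MSCs. Between these 2 groups 9 of the 10 genes were called, 7 higher and 2 lower in rejuvenated old MSCs, where 85.6% of all genes were called, 44.1% higher and 41.5% lower. The log2 fold change, rejuvenated old against young, was −1.97 ± 0.05 for Prrx2 (adjusted p = 1.36e-20), −0.52 ± 0.04 for Twist1 (adjusted p = 2.35e-12) and 0.71 ± 0.03 for Prrx1 (adjusted p = 4.41e-17). It was 2.96 ± 0.05 for Shox2, 3.38 ± 0.25 for Msx2, 1.78 ± 0.15 for Msx1, 1.13 ± 0.04 for Tbx18 and 0.33 ± 0.03 for Tbx15. Twist2 did not pass, at 0.06 with an interval of −0.13 to 0.25 (adjusted p = 0.555). All 6 libraries of one group were above all 6 of the other for 9 genes, as for 70.5% of all genes. With chromosomes set to the same median, Prrx1 differed by −0.0042 (adjusted p = 0.880) and Twist2 by −0.65 (adjusted p = 1.18e-06).

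Twist factors bind DNA as dimers with E proteins, and Id proteins, which lack a DNA-binding region, compete for those partners. The E proteins Tcf3, Tcf4 and Tcf12 were all higher in young than in old MSCs, by 1.11 ± 0.03, 1.52 ± 0.05 and 0.99 ± 0.04 on the log2 scale (adjusted p of 3.26e-19, 6.47e-19 and 1.33e-15). The inhibitors Id1, Id2, Id3 and Id4 were all lower in young MSCs, except that Id2 turned to 0.33 with chromosomes set to the same median and did not pass under 3 other scalings, with log2 fold changes of −0.31 ± 0.06, −0.13 ± 0.05, −0.997 ± 0.062 and −1.87 ± 0.12 (adjusted p of 2.47e-05, 0.0234, 5.02e-13 and 9.86e-13). This list of 7 thus had 3 genes higher and 4 lower, with a median of −0.13, which turned to 0.33 with chromosomes set to the same median. In rejuvenated old against old MSCs Tcf3 rose by 0.26 and Id4 by 0.53, Tcf4 fell by 0.18 and Id3 by 0.16, and the other 3 did not pass (median −0.02). The call of Tcf4 was lost with chromosomes set to the same median (adjusted p = 0.0690).

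The Snail and Zeb repressors act beside Twist1 in the loss of epithelial traits. Zeb1 was higher in young than in old MSCs, by 1.29 ± 0.03 on the log2 scale (adjusted p = 5.84e-20). Zeb2 (−1.66 ± 0.05), Snai2 (−1.46 ± 0.04) and Snai1 (−0.20 ± 0.05) were lower (adjusted p of 2.13e-18, 1.03e-20 and 0.00145), with a median of −0.83 over the 4. Snai2 lies on chromosome 16, whose median was −0.75. With chromosomes set to the same median Snai2 was at −0.69 and still passed, the call of Snai1 was lost at −0.09 (adjusted p = 0.107), and the median of the 4 was −0.39. After co-culture Snai1 rose by 0.39, Zeb2 by 0.28 and Zeb1 by 0.16, and Snai2 did not pass at 0.04 (median 0.22).

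Of 59 other limb and mesenchyme patterning regulators 41 were tested, and 15 were higher and 24 lower in young than in old MSCs, with a median log2 fold change of −0.69. Foxf1, a factor of gut and lung mesenchyme, was 233 ± 25.3 in young MSCs and had at most 3 reads in any old library, at least 77.4-fold lower. Tbx4 was given above. Dlx5, which promotes osteoblast formation, was 1022 ± 70.3 in old MSCs and had at most 1 read in any young library, at least 324-fold lower. Pax3, a factor of neural crest and muscle precursors, was 203 ± 11.5 in old MSCs and 0 in all young libraries, at least 64.3-fold lower. In rejuvenated old against old MSCs 8 rose and 15 fell of the 41 (median −0.08). Osr1, a factor of limb connective tissue, rose by 0.77 ± 0.04 and Sox9, the main factor of cartilage, by 0.73 ± 0.06 (adjusted p of 2.90e-12 and 7.34e-10), while Irx3 fell by 0.85 ± 0.04 and Foxl1 by 0.64 ± 0.16 (adjusted p of 1.03e-12 and 0.00204).

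The BMP pathway, which induces the Msx genes, had 22 of 24 genes tested. In young against old MSCs 6 were higher and 12 lower (median −0.33), or 9 and 11 with the same total per library. The receptor Bmpr1b (202 ± 25.2 against 9.02 ± 3.48) was higher in young MSCs. The ligand Bmp5 was 1134 ± 109 in old MSCs and had at most 1 read in any young library, at least 359-fold lower, and the transducer Smad9 was 21.8 ± 2.01 in young and 335 ± 30.2 in old MSCs. In rejuvenated old against old MSCs 7 rose and 6 fell (median −0.11). The ligands Bmp4 and Bmp6 rose by 1.83 ± 0.08 and 1.68 ± 0.14 (adjusted p of 3.30e-14 and 4.39e-09), Bmp4 from 2532 ± 106 to 9082 ± 1466 normalized counts. The receptor Bmpr2 fell by 0.61 ± 0.11 and the ligand Gdf6 by 0.56 ± 0.13 (adjusted p of 7.47e-05 and 0.00140). Msx1 and Msx2, set beside these, were 90.9 and 119 in rejuvenated old MSCs and 116 and 153 in old MSCs.

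Of 12 genes placed downstream of the members 5 were higher and 7 lower in young than in old MSCs (median −0.31). Besides Tbx4, the limb growth factor Fgf10 was higher in young MSCs, at 455 ± 20.0 against 15.7 ± 4.59. Postn, a matrix protein under Twist1 in bone, was lower in young MSCs at 592 ± 51.2 against 6537 ± 359, as was Bmp4 at 625 ± 44.2 against 2532 ± 106. After co-culture 2 rose and 6 fell (median −0.09). Fgf10 rose by 1.12 ± 0.18 (adjusted p = 2.31e-05), as did Bmp4, while Postn fell by 1.00 ± 0.05 and the matrix protein Tnc by 0.97 ± 0.05 (adjusted p of 1.67e-12 and 3.82e-12). The counts of these 5 lists are read against the 85.7% and 41.6% of all genes called, and nothing particular to a list is drawn from them.

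**Figure D5:**
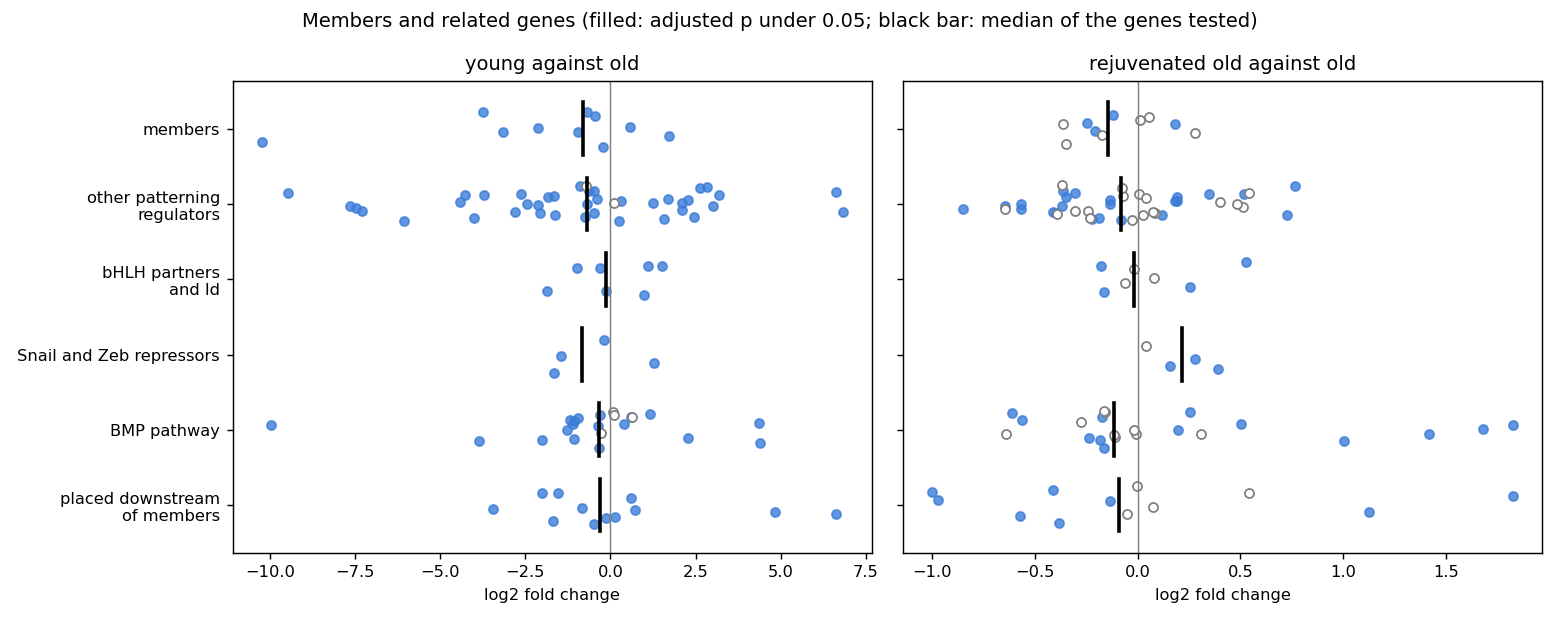
Log2 fold change (x axis) of the tested genes of each list, with a point per gene, filled where the adjusted p was under 0.05, and the list's median as a black bar, for young against old on the left and rejuvenated old against old on the right with a narrower axis. The members' medians were −0.82 and −0.15, and all 4 Snail and Zeb repressors lie above 0 in rejuvenated old against old.

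By likeness over the 18 libraries, the gene nearest to each member was searched among 11632 genes, as a description of points that fall into 3 groups. Pearson's r was 0.997 for Prrx1 with S1pr1, 0.996 for Prrx2 with Smox, 0.988 for Twist1 with Trib1 and 0.728 for Twist2 with Tpm1. It was 0.991 for Tbx15 with Smarca4, 0.996 for Tbx18 with Far1, 0.9999 for Pitx1 with Rftn1 and 0.999 for Shox2 with Vcan. It was 0.983 for Msx1 with Pik3ap1 and 0.988 for Msx2 with Krt13. Over the libraries' deviations from their group means the same pairs gave lower values, such as 0.698 for Prrx1 with S1pr1 and 0.537 for Shox2 with Vcan, and another gene was nearest for every member except Msx1, for which Pik3ap1 remained nearest at 0.793. Among the members themselves these deviations were most alike for Msx1 and Msx2, at 0.77 over all 18 libraries. This value leans on the young libraries, with 15 to 36 reads of Msx1 and 4 to 18 of Msx2. Old libraries went the other way: replicate 3 had the lowest Msx1 (99.1) and highest Msx2 (171), and replicate 4 the highest Msx1 (140) and lowest Msx2 (139). In rejuvenated old replicate 1 Msx1 was lowest (81.4) and Msx2 highest (130).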

How the data were processed

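RNA was sequenced from 18 cultures with the Illumina TruSeq Stranded mRNA kit. The authors aligned reads to mm10 with HISAT2, used StringTie and featureCounts, and normalized counts with DESeq2 on Galaxy. Versions, annotation, strand setting and filters are not given in the sources used here. What the authors deposited is a normalized signal, the reads of a gene divided by 1 size factor per library, and replicates were not pooled. Whole reads were recovered within 0.01 for 100% of values. Genes averaging 10 or more (14353) were tested as log2(value + 1) with limma 3.58.1 in R 4.3.3, with 3 group means and a trended prior variance. Calls had a Benjamini-Hochberg adjusted p under 0.05. The script was tested on simulated data. edgeR 4.0.16 and DESeq2 1.42.0 ran on the recovered reads as alternatives. No member was below the filter, so the permutation test planned for that case was not run.

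The members and lists were chosen with earlier results of these data known. All members were named, all genes of the 2 small lists, the top 2 called genes by size in each direction from each other list in young against old and in rejuvenated old against old, and for each member the most alike gene with a mean of at least 50. The rule also named 1 further gene, which is not reported here. A group with at most 3 reads in each library was at the floor. The other marker lists have 15 stromal, 14 macrophage, 8 endothelial, 7 osteoblast, 7 adipocyte, 6 chondrocyte, 7 skeletal muscle and 6 epithelial genes. Exon lengths and overlaps come from GENCODE vM21 and promoters from RefSeq, both on GRCm38. Depth was 22936251 to 29559194 reads per library. Floors cover counting error only. Alternatives were another pseudocount, filter or scaling, fits of 2 groups, a single prior variance, a replicate block, a stricter threshold, chromosomes set to the same median, and leaving out each library. Python 3.11.15 with numpy 2.4.6, pandas 2.3.3 and matplotlib 3.10.9 was also used.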

Additional observations from a re-analysis of the deposited data

Results flagged for a closer look

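In 11 of 111 sets of 6 libraries, over 39 genes, the gap between the highest or lowest library and its neighbour, divided by the range, was above Dixon's critical value for 6 samples. Chance gives about 1 in 20 sets, 5.55 here. Of 29 sets of member values 3 were concerned. Prrx2 was 4001 normalized counts in young replicate 4, with the next at 4182. Twist1 was 2316 in young replicate 5, with the next at 2205. Pitx1 was 1893 in rejuvenated old replicate 5, with the next at 1672. Among the related genes, Tcf3 was high at 2684 in rejuvenated old replicate 1, Tcf12 was low at 1907 in old replicate 1 and at 1750 in rejuvenated old replicate 5, and Id2 was low at 1016 in old replicate 1. Snai1 was low at 1245 in rejuvenated old replicate 6 and Zeb2 was low at 1069 in young replicate 2. Foxf1 was 12.4 in rejuvenated old replicate 1, the library with 402 normalized counts of Cd34, and at most 1.93 in the others of its group. Tbx4 was 5.79 in rejuvenated old replicate 4 and at most 1.03 in the others.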

How the results depend on the processing

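Over 32 alternatives, 14 in processing and 18 that left out a library, 927 of 960 member fold changes kept their direction and their side of the threshold, 10 no longer passed, 14 newly passed and 9 turned their sign. The 10 that kept their direction but no longer passed were all Twist2 in young against old MSCs, and among those that turned their sign Prrx1 also lost its call in both comparisons with young MSCs. With chromosomes set to the same median, young against old turned to 0.0286 for Prrx1 and 0.49 for Twist2, and rejuvenated old against young to −0.0042 for Prrx1 and −0.65 for Twist2. Prrx1 in rejuvenated old against old MSCs was −0.00460 with the same total per library, −0.0411 with quantile normalization and −0.000203 without rejuvenated old replicate 6, the lowest value with a library left out (the highest was 0.0190, without rejuvenated old replicate 5), and Twist2 in rejuvenated old against young was −0.0304 and −0.0111 with these 2 scalings. The count of members that rose in rejuvenated old against old MSCs was 2 in place of 1 with a pseudocount of 10, fits of 2 groups, edgeR or DESeq2, and 1 to 2 when libraries were left out. The count that fell was 5 in place of 3 with fits of 2 groups, edgeR or DESeq2. The cause was not tested. No pairing by replicate number was seen: deviations of same-numbered old and rejuvenated old libraries correlated at −0.152 to 0.0736, and 0 of 6 was nearest to its own number. Whether same-numbered cultures shared a donor or a preparation was not tested. The replicate block called 12219, 5769 and 12210 genes in young against old, rejuvenated old against old and rejuvenated old against young, against 12297, 5971 and 12288 without it. It changed no member's call. Depth limits Pitx1 in young MSCs, where 1 read in 6 libraries allows only a bound, and Msx2, with as few as 4 reads in a library.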
